A study of Mus musculus with 8 samples.

Results

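Transcripts of 10 insulin and IGF signalling components were examined in pressure-loaded mouse hearts labelled as knockouts of, or controls for, the transcription factor Yin-Yang 1 (YY1). The components are the ligand Igf1, the receptors Igf1r and Insr, the receptor substrates Irs1 and Irs2, and the binding proteins Igfbp2, Igfbp3, Igfbp4, Igfbp5 and Igfbp6. They were chosen by symbol, and all 10 are among the 24411 gene symbols of the count tables. The libraries came from 4 mice labelled as cardiac-specific YY1 KO and 4 MerCreMer control mice, all C57BL/6 and all operated on for transverse aortic constriction 1 week before the heart was taken. Both groups share the operation, which narrows the aorta and so loads the left ventricle. MerCreMer is a Cre recombinase that stays inactive until a ligand binds it. The labels name neither the promoter that drives it, nor the ligand, the Yy1 alleles or the age of the mice. No unoperated heart and no heart without the transgene was analysed here, so each difference below is one between genotypes under load.

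Insulin and the insulin-like growth factors bind 2 related receptor tyrosine kinases, the insulin receptor and the IGF1 receptor. The activated receptors phosphorylate the docking proteins IRS1 and IRS2, which recruit PI3-kinase and so switch on AKT, glucose uptake and mTOR-driven protein synthesis. IGF-binding proteins hold the growth factors outside the cell and set how much of them reaches the receptors. In the heart this pathway is known for its part in cardiomyocyte growth and in the choice of fuel.

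The libraries held 14582605 to 16000455 reads in genes. Yy1 itself stood at 18.04 to 23.8 CPM in the YY1 KO hearts and at 33.8 to 37.2 CPM in the controls, so its transcript was reduced to 58.3% of the control mean and not absent. Bulk heart tissue was sequenced and the knockout is labelled cardiac-specific, so this value does not give the loss of Yy1 within cardiomyocytes. CPM is the usual per-million scaling of read counts, here by TMM-adjusted library size. The series describes all mice as male, but 4 libraries, YY1 KO 1 and 4 and controls 1 and 4, held 2156 to 3512 reads of Xist and 0 to 2 reads of 4 Y-linked genes. The other 4 libraries, YY1 KO 2 and 3 and controls 2 and 3, held 0 to 6 Xist reads and 2519 to 3018 reads of the Y-linked genes. Both classes are split evenly between the genotypes, and the difference of each of the 9 components that could be tested is also given within the 4 libraries with Y-linked reads. Marker genes of several cell types were read as well. The test described below called 21.6% of all genes higher and 17.3% lower, shares to set beside the counts of markers. The summed level of 10 cardiomyocyte markers was 56009 to 80806 CPM in YY1 KO hearts and 91857 to 121208 CPM in controls, with 4 of 10 markers called lower and 0 higher. The largest part of this sum was Myh6 (means of 28471 CPM in YY1 KO hearts and 39100 CPM in controls), which was not called. Actn2, also not called, was at 3882 to 4684 CPM in YY1 KO hearts and 2940 to 3726 CPM in controls, so every knockout lay above every control. Tnnt2 had a log2 fold change of 0.31 and was not called. The sum of 10 endothelial markers was 1418 to 1723 CPM in YY1 KO hearts and 1921 to 2559 CPM in controls, with 7 of 10 lower and 1, Vwf, higher. For 10 pericyte and smooth muscle markers it was 844.3 to 1041 CPM in YY1 KO hearts and 1238 to 1497 CPM in controls, with 4 of 10 lower and 1, Cnn1, higher. The fibroblast sums (3714 to 6072 CPM in YY1 KO hearts, 2978 to 5322 CPM in controls) and the macrophage sums (436 to 583 CPM in YY1 KO hearts, 367 to 616 CPM in controls) overlapped between genotypes, with 2 fibroblast markers higher and no macrophage marker called. No marker of these 5 lists was at 0 in any library. Of 8 epicardial and mesothelial markers, 6 were too low to test and each of those 6 was at 0 in at least 1 library, and their sums overlapped (17.9 to 35.1 CPM in YY1 KO hearts, 16.4 to 59.1 CPM in controls).

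Of the 10 components, 9 passed the filter on low counts, and 2 of these 9 changed with genotype. Igfbp6 was higher and Insr lower in YY1 KO hearts, and the other 7 did not pass the test. The test was edgeR's quasi-likelihood test on counts with Benjamini-Hochberg adjustment over 13506 genes and a threshold of 0.05. It called 38.9% of all genes, 21.6% as higher and 17.3% as lower, so the 22.2% of components called was below the share of all genes. The median log2 fold change over the 9 components was 0.096, and their median absolute log2 fold change was 0.30, against 0.35 for all genes tested. Groups did not overlap for the same 2 components, while 38.3% of all genes had groups that did not overlap (21.8% with YY1 KO higher and 16.5% with YY1 KO lower). Bulk heart tissue was sequenced, so fewer cells of a type and less RNA per cell cannot be told apart for any of these values.

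**Figure D1:**
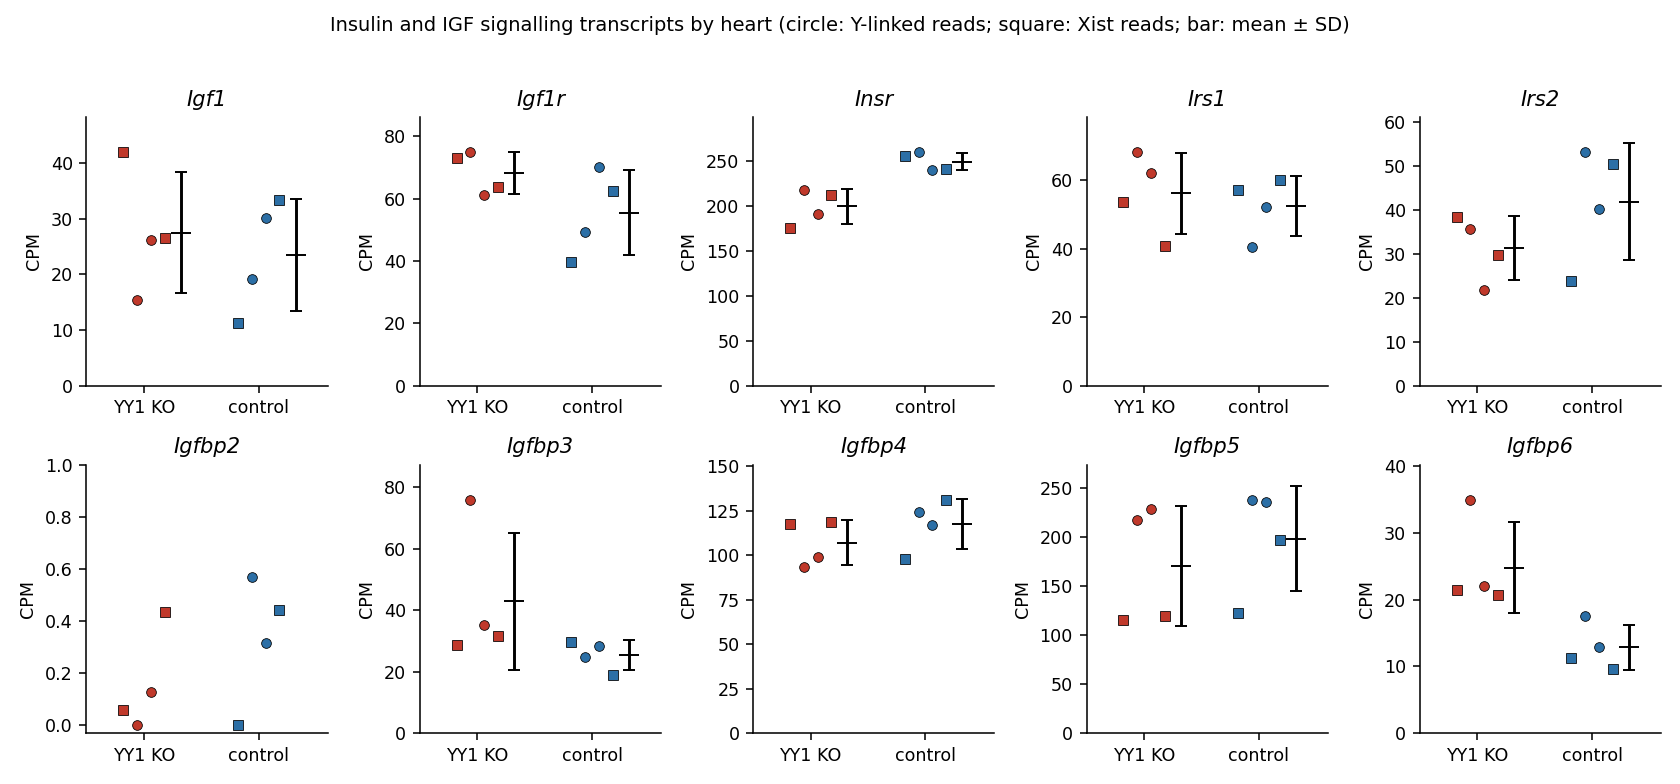
CPM of the 10 components in each heart (y axis, linear, 1 panel a gene), YY1 KO hearts in red and controls in blue, with circles for libraries with Y-linked reads, squares for libraries with Xist reads, and bars for the mean and SD of 4 hearts (left out for Igfbp2, which stays below 0.57 CPM). The red points lie below the blue ones for Insr and above them for Igfbp6, and the groups overlap in the other panels.

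Igf1 encodes insulin-like growth factor 1, which fibroblasts, macrophages and other cells of the heart secrete and which acts on cardiomyocytes through the IGF1 receptor. Igf1 lies on the plus strand of chromosome 10 (87858265 to 87937042, mm10) and stood at 42.0, 15.4, 26.1 and 26.6 CPM in YY1 KO hearts 1 to 4, against 11.3, 19.2, 30.07 and 33.4 CPM in controls 1 to 4. The highest and the second lowest of the 8 values were both knockouts, so the groups overlapped widely. The log2 fold change was 0.23 with a 95% interval of −0.60 to 1.05, and edgeR's adjusted p was 0.647, with 0.382 to 0.981 over the alternatives. The interval covers both a fall and a doubling, so a genotype difference in Igf1 was not detectable with this spread between mice. Within the 4 libraries with Y-linked reads the log2 fold change was −0.27 (edgeR adjusted p = 0.561), and within the 4 with Xist reads 0.61 (0.527).

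Marker levels at the ends of the Igf1 range were as follows. Control 1, with the lowest Igf1, also had the lowest sums of fibroblast markers (2978 CPM) and macrophage markers (367 CPM), and YY1 KO 1, with the highest Igf1, had the highest fibroblast sum (6072 CPM) and the second highest macrophage sum (583 CPM). Between these ends the 2 sums did not always go together. YY1 KO 4, at 26.6 CPM of Igf1, had the second highest fibroblast sum (5638 CPM) and the second lowest macrophage sum (436 CPM). The part of these cells in the Igf1 values was not tested. The protein-coding transcripts nearest to Igf1 over the 8 libraries were P3h3, a collagen prolyl hydroxylase, Mrc2, an endocytic collagen receptor, and Nnmt, nicotinamide N-methyltransferase. The measure was the root mean square distance between log2 CPM profiles, each centred on its own mean, and it was 0.135 for P3h3, 0.137 for Mrc2 and 0.14 for Nnmt, against a median of 0.643 over 12933 genes. These genes were picked as the nearest, so distances under the median follow from the choice.

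The receptors were well covered, with 27414 reads of Insr and 7652 of Igf1r over the 8 libraries. Insr, on the minus strand of chromosome 8 (3122061 to 3279617), encodes the insulin receptor. Insr stood at 175.6, 217.9, 191.0 and 212.5 CPM in YY1 KO hearts 1 to 4, against 255.9, 259.6, 240.3 and 241.3 CPM in controls 1 to 4. Every knockout lay below every control. Insr averaged 199.2 ± 19.6 CPM in YY1 KO hearts and 249.3 ± 9.92 CPM in controls (SD, n = 4 each), and the log2 fold change was −0.32 ± 0.094 (SE; 95% interval −0.53 to −0.11; edgeR adjusted p = 0.0236). The knockout mean was 79.9% of the control mean. The call did not hold without YY1 KO 1 (edgeR adjusted p = 0.0598), YY1 KO 3 (0.0734) or control 2 (0.0605), while the log2 fold change without each single library stayed between −0.37 and −0.27. Within the class with Y-linked reads it was −0.31 (edgeR adjusted p = 0.176) and within the Xist class −0.36 (0.255), with the knockouts below the controls in both. Over all 20 alternatives edgeR's, DESeq2's or limma's adjusted p for Insr was 0.00177 to 0.255. Insulin receptor is made by cardiomyocytes and endothelial cells among others. The summed markers of both cell types were lower in the knockouts, though single markers of each went the other way, as given above. The part of these cells in the lower Insr was not tested.

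Igf1r, on the plus strand of chromosome 7 (67952827 to 68233668), encodes the IGF1 receptor. Igf1r stood at 73.01, 74.8, 61.1 and 63.8 CPM in YY1 KO hearts 1 to 4, against 39.8, 49.2, 70.2 and 62.5 CPM in controls 1 to 4. Controls 1 and 2 lay below all knockouts, and controls 3 and 4 among them. The log2 fold change was 0.30 (95% interval −0.080 to 0.68; edgeR adjusted p = 0.187), and within the class with Y-linked reads it was 0.17.

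The balance between the receptors was then measured within each library, where library scaling plays no part. Per kilobase of exons, the Igf1r to Insr ratio was 0.34, 0.281, 0.262 and 0.246 in YY1 KO hearts 1 to 4, against 0.127, 0.155, 0.239 and 0.212 in controls 1 to 4. The lowest knockout was just above the highest control, and insulin receptor transcripts outnumbered IGF1 receptor transcripts in every heart. The mean ratio was 0.282 ± 0.041 in YY1 KO hearts and 0.183 ± 0.051 in controls (SD, n = 4 each), a log2 difference of 0.66. A two-sided exact permutation test gave p = 0.0286, the smallest p that 70 assignments allow, and adjusted over the 2 ratios tested p was 0.0571, past no threshold of 0.05. As the ratio contains Insr, it is not independent of the Insr result.

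**Figure D2:**
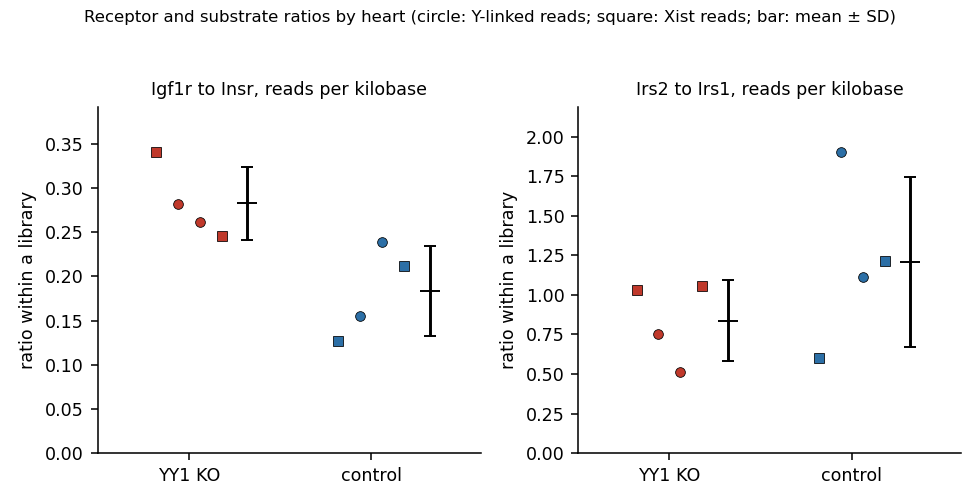
Ratio of reads per kilobase within each library (y axis, linear) for Igf1r to Insr on the left and Irs2 to Irs1 on the right, YY1 KO hearts in red and controls in blue, circles for Y-linked and squares for Xist reads, bars for mean and SD. The Igf1r to Insr ratio runs from 0.246 to 0.34 in YY1 KO hearts and from 0.127 to 0.239 in controls, whereas the Irs2 to Irs1 ratio overlaps.

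Irs1 and Irs2 encode the docking proteins that carry the signal from both receptors to PI3-kinase. Irs1, on chromosome 1 (82233101 to 82291416), stood at 53.7, 68.3, 62.04 and 40.9 CPM in YY1 KO hearts 1 to 4, against 57.2, 40.4, 52.4 and 60.3 CPM in controls 1 to 4. These values were interleaved, and the log2 fold change was 0.096 (95% interval −0.29 to 0.49; edgeR adjusted p = 0.683). Within the class with Y-linked reads it was 0.47 (edgeR adjusted p = 0.0766). Irs2, on chromosome 8 (10984681 to 11008458), stood at 38.3, 35.6, 21.9 and 29.8 CPM in YY1 KO hearts 1 to 4, against 23.9, 53.2, 40.2 and 50.5 CPM in controls 1 to 4. Controls 2, 3 and 4 lay above all knockouts, and control 1 lay near the lowest of them. The log2 fold change of Irs2 was −0.42 (95% interval −0.99 to 0.16; edgeR adjusted p = 0.222). Without control 1 it was −0.62 and passed the test (edgeR adjusted p = 0.0327), and within the class with Y-linked reads it was −0.72 (0.0998). Within the Xist class it was −0.13 (edgeR adjusted p = 0.866), and without YY1 KO 3 it was −0.28 (0.449). Over the alternatives the adjusted p of Irs2 was 0.0327 to 0.866 (edgeR, DESeq2 or limma). The Irs2 to Irs1 ratio per kilobase averaged 0.838 ± 0.257 in YY1 KO hearts and 1.21 ± 0.534 in controls (SD, n = 4 each; two-sided exact permutation p = 0.314). The noncoding gene 9530052E02Rik overlaps Irs2 on the other strand, and counting by strand gave Irs2 312 more reads over the 8 libraries and a log2 fold change of −0.43. Other genes are annotated across Igf1 (the antisense gene Igf1os), Insr (the antisense gene Gm16180 and the pseudogene Vmn2r-ps88) and Irs1 (the protein-coding gene Gm9747), all on the opposite strand, and no component's call changed on counting by strand.

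The 5 binding proteins differed in how they behaved. Igfbp6 encodes a carrier that prefers IGF2 over IGF1. It lies on the plus strand of chromosome 15 (102144362 to 102149511). Igfbp6 stood at 21.4, 34.9, 22.0 and 20.7 CPM in YY1 KO hearts 1 to 4, against 11.3, 17.5, 12.95 and 9.68 CPM in controls 1 to 4. The lowest knockout was above the highest control, and YY1 KO 2 stood well above the other knockouts. Igfbp6 averaged 24.7 ± 6.80 CPM in YY1 KO hearts and 12.9 ± 3.38 CPM in controls (SD, n = 4 each), and the log2 fold change was 0.94 ± 0.22 (SE; 95% interval 0.44 to 1.45; edgeR adjusted p = 0.0103). The call held without each single library, with log2 fold changes of 0.73 to 1.12, and the knockouts were above the controls in both classes. Within the class with Y-linked reads the log2 fold change was 0.88 (edgeR adjusted p = 0.0630) and within the Xist class 1.01 (0.1). The lowest adjusted p over the alternatives was 0.00111, from DESeq2. Igfbp6 is known from fibroblasts. Of 10 fibroblast markers, Pdgfra (log2 fold change 0.39) and Mfap4 (1.79) were called higher and 0 lower, where 21.6% of all genes were called higher. Of the 8 not called, Col3a1 (−0.093), Lum (−0.26) and Dpt (−0.32) had negative log2 fold changes and the rest positive ones. The marker sums overlapped between genotypes. The part of fibroblasts in the higher Igfbp6 was not tested. The protein-coding transcripts with profiles nearest to Igfbp6 were Zdhhc4 at a distance of 0.158, Oscp1 at 0.177 and Vsig10l at 0.18, against a median of 0.621. They too were picked as the nearest, and the distance includes the genotype difference, so a like difference in them follows from the choice.

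The promoter of Igfbp6 is shown because it is the component with the largest change, beside that of Igf1r, since these are the lowest and the highest in G and C among the 9 components with a RefSeq promoter entry (all but Insr). Each line gives the 250 bases before the start site that RefSeq annotates (GRCm38.p6), 5′ to 3′ on the gene's strand, with CG dinucleotides in capitals. The Igfbp6 sequence is chr15:102143936-102144185 and the Igf1r sequence chr7:67952007-67952256, both on the plus strand.
Igfbp6: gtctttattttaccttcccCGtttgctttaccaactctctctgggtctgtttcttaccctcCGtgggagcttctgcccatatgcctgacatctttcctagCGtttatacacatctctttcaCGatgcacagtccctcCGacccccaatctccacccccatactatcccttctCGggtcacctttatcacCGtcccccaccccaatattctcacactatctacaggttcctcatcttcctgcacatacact
Igf1r: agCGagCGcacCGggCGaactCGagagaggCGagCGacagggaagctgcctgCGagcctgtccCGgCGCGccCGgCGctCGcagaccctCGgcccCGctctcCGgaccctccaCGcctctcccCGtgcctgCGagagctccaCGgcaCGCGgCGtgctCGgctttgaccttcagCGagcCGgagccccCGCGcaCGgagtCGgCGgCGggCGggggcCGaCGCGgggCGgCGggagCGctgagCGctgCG
The Igfbp6 sequence has 49.6% G and C and 7 CG dinucleotides, and the Igf1r sequence 77.6% and 42. The median over 32851 mouse promoters of the same length was 52.4%. The RefSeq table held 10 promoters of 9 of the components. The letters AANATGGC, a form of the motif that YY1 is known to bind, were searched on both strands. They were in 0 of these 10 windows and in 3.91% of all 32851, which says only that these letters are not in these windows.

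Igfbp3 encodes the main IGF carrier of the circulation and lies on chromosome 11 (7206086 to 7213923). Igfbp3 stood at 28.8, 75.9, 35.1 and 31.7 CPM in YY1 KO hearts 1 to 4, against 29.7, 24.8, 28.5 and 18.9 CPM in controls 1 to 4. One knockout, YY1 KO 2, stood far above all others, and YY1 KO 1 lay below control 1. The log2 fold change was 0.75 (95% interval 0.056 to 1.44), with an unadjusted edgeR p of 0.0371 and an adjusted p of 0.0821, and without YY1 KO 2 it was 0.32 (edgeR adjusted p = 0.156). Within the class with Y-linked reads, which holds YY1 KO 2, it was 1.04 (edgeR adjusted p = 0.0833), and within the Xist class 0.31 (0.483). Over the alternatives the adjusted p of Igfbp3 was 0.0544 to 0.483 (edgeR, DESeq2 or limma).

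Igfbp5 and Igfbp4 had the highest mean levels per kilobase of the 5 binding proteins in both groups, though in YY1 KO 2 Igfbp6 and Igfbp3 stood above Igfbp4. Igfbp4, whose protein the protease PAPP-A cleaves to free its IGF, lies on chromosome 11 (99041244 to 99054392). Igfbp4 stood at 117.3, 93.4, 99.1 and 118.5 CPM in YY1 KO hearts 1 to 4, against 98.1, 124.02, 116.8 and 131.1 CPM in controls 1 to 4. It varied little between mice, and its log2 fold change of −0.13 had the 95% interval −0.40 to 0.13 (edgeR adjusted p = 0.397). Igfbp5, a carrier that also binds extracellular matrix, lies on chromosome 1 (72857932 to 72874884). Igfbp5 stood at 115.5, 217.2, 228.8 and 119.5 CPM in YY1 KO hearts 1 to 4, against 123.1, 238.1, 235.5 and 197.6 CPM in controls 1 to 4. The low values were YY1 KO 1, YY1 KO 4 and control 1, all libraries with Xist reads, and the log2 fold change between genotypes was −0.22 (95% interval −0.86 to 0.42; edgeR adjusted p = 0.558). Within the class with Y-linked reads it was −0.11 for Igfbp5 and −0.34 for Igfbp4.

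Igfbp2 was too low to test. It had 10 reads in the 4 YY1 KO libraries together and 20 in the 4 control libraries, and from 0 to 8 reads in a library. Its neighbour Igfbp5 ends 5.46 kb from it on the opposite strand of chromosome 1, in a tail-to-tail pair, with 10583 reads over the YY1 KO libraries.

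**Figure D3:**
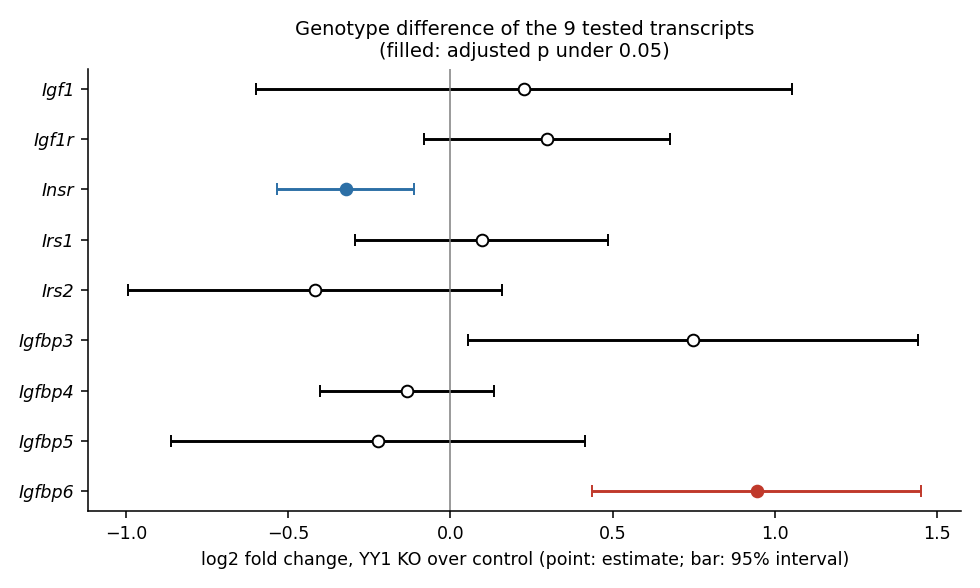
Log2 fold change of YY1 KO over control hearts (x axis) for the 9 tested components, with 95% intervals from edgeR's fit as bars and filled points for an adjusted p under 0.05. The interval of Igfbp6 (0.44 to 1.45) lies above 0 and that of Insr (−0.53 to −0.11) below it, and that of Igfbp3 lies above 0 although its adjusted p was 0.0821.

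Levels per kilobase of exons were then compared between the components. In YY1 KO hearts the order of the means was Igfbp5 (28.3 CPM per kilobase), Igfbp4 (24.3), Igfbp6 (22.2), Insr (14.5), Igfbp3 (13.7), Irs1 (6.15), Irs2 (4.97), Igf1r (4.06), Igf1 (2.78) and Igfbp2 (0.085). In controls it was Igfbp5 (33.1 CPM per kilobase), Igfbp4 (26.6), Insr (18.1), Igfbp6 (11.6), Igfbp3 (8.14), Irs2 (6.64), Irs1 (5.75), Igf1r (3.30), Igf1 (2.37) and Igfbp2 (0.18). Igfbp6 stood above Insr in every YY1 KO heart and below it in every control. As these are the 2 components called, in opposite directions, this change of order is not independent of those calls. It also depends on the merged exon lengths, 1.11 kb for Igfbp6 and 13.7 kb for Insr. Many neighbours in these orders were not apart. Among YY1 KO hearts the ranges of neighbours overlapped except between Igfbp6 and Insr, Igfbp3 and Irs1, and Igf1 and Igfbp2. Among controls they overlapped except between Igfbp4 and Insr, Insr and Igfbp6, Irs1 and Igf1r, and Igf1 and Igfbp2.

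The binding proteins together averaged 88.6 ± 18.03 CPM per kilobase in YY1 KO hearts and 79.6 ± 12.9 in controls (SD, n = 4 each), with overlapping values. The difference of the means was 9.07 CPM per kilobase, and without YY1 KO 2 it was 0.952. Within this sum Igfbp6 made up 21.6 to 27.8% in YY1 KO hearts and 11.2 to 17.2% in controls. Igfbp5 made up 25.9 to 41.6% in YY1 KO hearts and 32.9 to 45.3% in controls. The sum exceeded Igf1 by 17.5 to 72.6 times in YY1 KO hearts and by 23.0 to 54.8 times in controls. These multiples depend on the merged exon lengths, 9.9 kb for Igf1 and 1.11 to 6.01 kb for the binding proteins. Which transcript forms were expressed was not determined.

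**Figure D4:**
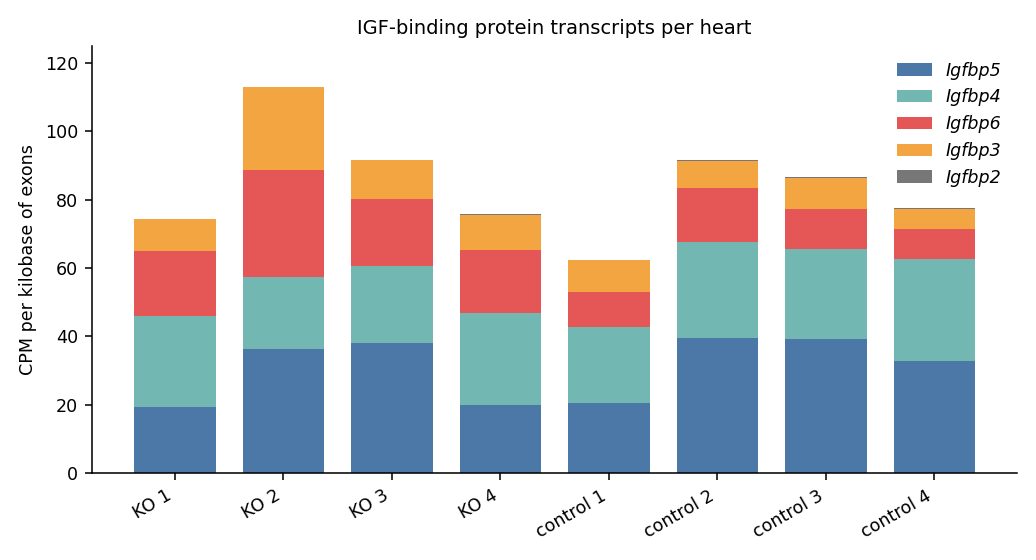
Stacked levels of the 5 IGF-binding protein transcripts in each heart (y axis, CPM per kilobase of exons, from 0), YY1 KO hearts on the left and controls on the right. The total overlaps between genotypes (74.3 to 113 in YY1 KO hearts, 62.3 to 91.7 in controls), while the Igfbp6 layer is 18.6 to 31.4 in YY1 KO hearts and 8.70 to 15.8 in controls.

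Other genes of the pathway were read from 6 lists with 82 genes, of which 75 were tested. Of these, 10 rose and 12 fell in YY1 KO hearts, which is 29.3% against 38.9% of all genes, and 53 did not pass. With library size alone as scaling the split was 15 higher and 10 lower. Their median log2 fold change was 0.0035, against 0.013 over all genes.

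Outside the cell, 1 of 9 tested genes rose and 1 fell, where 21.6% of all genes were called higher and 17.3% lower. Stc2 encodes stanniocalcin 2, an inhibitor of the protease PAPP-A. Stc2 was at 24.7 to 26.2 CPM in YY1 KO hearts and 9.85 to 15.5 CPM in controls (log2 fold change 0.99 ± 0.14, edgeR adjusted p = 0.000967). Igfals encodes the acid-labile subunit that joins IGF and IGFBP3 in a stable complex in blood, and is known mainly from liver. Igfals was at 1.96 to 3.99 CPM in YY1 KO hearts and 5.37 to 11.3 CPM in controls (log2 fold change −1.30 ± 0.32, edgeR adjusted p = 0.0128). Igf2, the other IGF ligand, averaged 25.9 ± 4.53 CPM in YY1 KO hearts and 32.4 ± 3.96 CPM in controls, with an edgeR adjusted p of 0.0948. Igfbp7, a binding protein relative outside the 5 listed, had more reads than any of them, at 471.3 ± 110.3 CPM in YY1 KO hearts and 309.8 ± 139.6 CPM in controls (SD, n = 4 each), and was not called (log2 fold change 0.60, edgeR adjusted p = 0.174). Ins1 and Ins2, the insulin genes, had 0 reads in all 8 libraries, and Insrr, Igfbp1 and Pappa2 were too low to test.

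Inside the cell, 2 of 10 tested adaptor genes and 3 of 12 kinase genes were called, where 38.9% of all genes were, and no test compared these lists with other genes. Among the adaptors, Gab1, a docking protein, fell (log2 fold change −0.46 ± 0.11, edgeR adjusted p = 0.00912), and Dok1 rose (1.13, adjusted p = 0.0475), a call that did not hold under 13 of 20 alternatives, among them those without YY1 KO 1, 3 or 4 or control 1 or 2. Of 12 genes for PI3-kinase, PDK1, AKT and atypical PKC, 3 rose and 0 fell. The catalytic subunit gene Pik3cb was at 31.6 to 48.0 CPM in YY1 KO hearts and 22.2 to 27.5 CPM in controls (log2 fold change 0.64 ± 0.13). The regulatory subunit gene Pik3r2 (log2 fold change 0.32, edgeR adjusted p = 0.0478) and the kinase gene Prkci (0.31, adjusted p = 0.0304) rose by less, and those calls did not hold under 15 and 7 of 20 alternatives. The Pik3r2 call was lost without any 1 library other than control 1, and the Prkci call without YY1 KO 1 or 3 or control 1 or 2. Akt1 and Akt2 were not called, with edgeR adjusted p of 0.190 and 0.417.

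The list for mTOR and S6 kinase had 2 of 15 genes higher and 3 lower, where 21.6% of all genes were called higher and 17.3% lower. Eif4e, which encodes the cap-binding protein, averaged 89.0 ± 19.4 CPM in YY1 KO hearts and 190.1 ± 25.5 CPM in controls (SD, n = 4 each; log2 fold change −1.10 ± 0.16, edgeR adjusted p = 0.00128). Its inhibitor genes went opposite ways, with Eif4ebp1 at 106.5 to 161.5 CPM in YY1 KO hearts and 58.5 to 80.7 CPM in controls (0.87 ± 0.15), and Eif4ebp2 at 18.9 to 23.8 CPM in YY1 KO hearts and 32.5 to 39.6 CPM in controls (−0.72 ± 0.10). Genes of 2 mTOR inhibitors also went opposite ways. Akt1s1, which encodes PRAS40, rose by 0.49 ± 0.13 on the log2 scale (edgeR adjusted p = 0.0141). Deptor fell by 0.61 on the log2 scale (edgeR adjusted p = 0.0206), a call lost without YY1 KO 1, YY1 KO 3 or control 2. Mtor, Rptor, Rictor and Rps6kb1 were not called.

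Of 10 genes for AKT substrates, 1 rose and 3 fell, where 21.6% of all genes were called higher and 17.3% lower. The share called in this list was close to the 38.9% of all genes. Tbc1d4, whose protein holds the glucose transporter GLUT4 inside the cell until AKT acts on it, was at 52.8 to 69.6 CPM in YY1 KO hearts and 78.5 to 161.2 CPM in controls (log2 fold change −0.87 ± 0.20, edgeR adjusted p = 0.00901). Its relative Tbc1d1 fell by 0.67 on the log2 scale (edgeR adjusted p = 0.0371), which was lost with library size alone as scaling (adjusted p = 0.0884) and without YY1 KO 2 or 3 or control 2, 3 or 4. Pfkfb2, which encodes an enzyme that makes an activator of glycolysis, fell by 1.24 on the log2 scale. Bad, a cell death gene whose protein AKT inactivates, was at 22.3 to 26.5 CPM in YY1 KO hearts and 12.7 to 15.7 CPM in controls (log2 fold change 0.77 ± 0.10). Slc2a4, the gene of GLUT4 itself, was at 292 to 611 CPM in YY1 KO hearts and 346 to 582 CPM in controls, and was not called (edgeR adjusted p = 0.776).

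Among 19 inhibitors of the signal, 2 rose and 4 fell, where 21.6% of all genes were called higher and 17.3% lower. Trib3 encodes a pseudokinase that binds AKT and is known as a target of the stress factor ATF4. Trib3 was at 29.1 to 55.0 CPM in YY1 KO hearts and 2.96 to 5.50 CPM in controls (log2 fold change 3.43 ± 0.27, edgeR adjusted p = 0.000172). The phosphatase gene Ptpn2 rose by 0.39 ± 0.078. Trib2 (−0.75 ± 0.15, edgeR adjusted p = 0.00454) and Grb14 (−0.82 ± 0.25, adjusted p = 0.0280), which encodes an adaptor that blocks the insulin receptor kinase, fell. The values of Grb14 overlapped, at 56.3 to 98.4 CPM in YY1 KO hearts and 89.2 to 184 CPM in controls, and the call did not hold under 8 of 20 alternatives, among them those without YY1 KO 1, 2 or 3 or control 1 or 2. The AKT phosphatase genes Phlpp1 and Phlpp2 fell by 0.34 and 0.37 on the log2 scale. The Phlpp1 call was lost without YY1 KO 1, 2 or 3 or control 1 or 2, and the Phlpp2 call without YY1 KO 3 or control 2, 3 or 4.

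**Figure D5:**
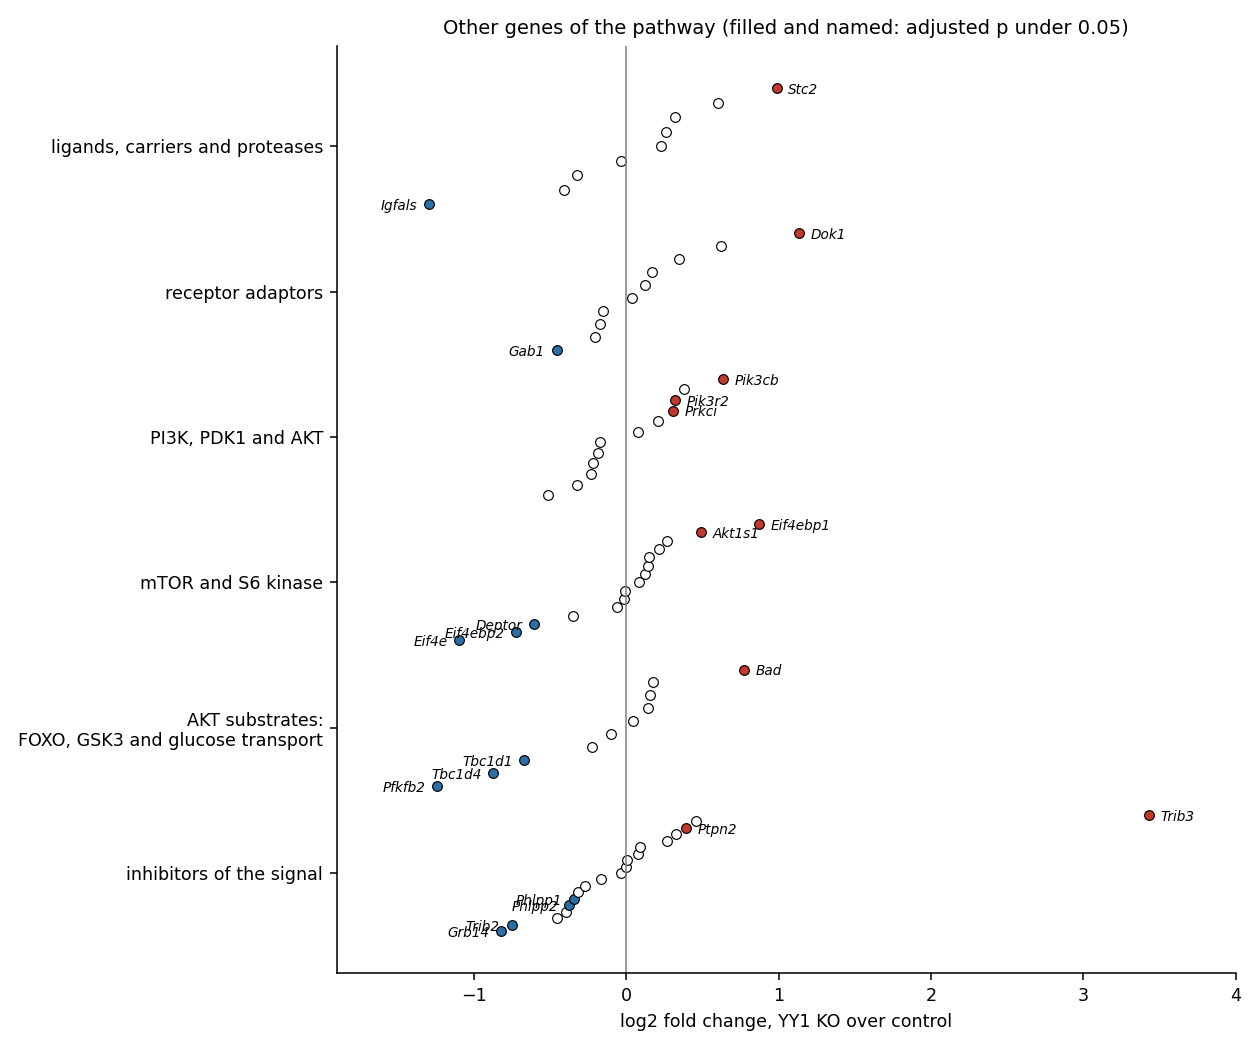
Log2 fold change of YY1 KO over control hearts (x axis) for the 75 tested genes of the 6 pathway lists (y axis, genes ordered by value within a list), filled red for called higher and blue for called lower. Trib3 at 3.43 stands apart, and 53 of the 75 genes are open symbols between −0.52 and 0.62.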

How the data were processed

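The authors deposited raw read counts per gene symbol, 1 table for each heart. The submitters' processing notes name Trimmomatic, STAR and the build mm10, without versions. The annotation used for counting is not stated in the labels. Counts irrespective of strand were used. Reads outside genes (33.0 to 38.9% of each library, 11.8 to 14.1% mapping to several places) were left out. The strand columns put 2.66 to 5.31% of stranded reads opposite to the annotated strand.

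Genes were kept with filterByExpr (minimum count 10 in at least 4 libraries) and tested with edgeR 4.0.16 (TMM, robust quasi-likelihood F test, R 4.3.3) with Benjamini-Hochberg adjustment. Standard errors are the log2 fold change over the root of F. Exon lengths are merged GENCODE M21 exons (GRCm38). Ratios were tested with SciPy 1.17.1. Alternatives were other scalings, DESeq2 1.42.0, limma-voom 3.58.1, other filters, sense-strand counts, a replicate block, sex class and leaving out each library. On simulated counts (13397 genes, 4 against 4 libraries) the edgeR test recovered 70% of 2-fold and 22% of 1.5-fold changes, and 8% of its 100 calls were false. The simulation changed a far smaller share of genes than the 38.9% called in the data, and only genes above a minimum level. The adjustment is stricter with so few changes, so these percentages do not give the power of the real comparison.

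The components and lists were chosen with earlier results of these data known. All components, and of each pathway list up to 4 called genes with the largest fold change, were to be named; Akt1, Akt2, Slc2a4, Igf2, Igfbp7, Akt1s1, Mtor, Rptor, Rictor, Rps6kb1, Phlpp1 and Phlpp2 were named after their values were seen. Libraries of a group differed by more than counting error (chi-square divided by its degrees of freedom, 13.9 to 92.0). The labels number separate mice.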

Additional observations from a re-analysis of the deposited data

Results flagged for a closer look

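YY1 KO 2 stood apart from the other knockouts for 2 binding proteins. Its Igfbp3 was 75.9 CPM against at most 35.1 CPM in the other knockouts, and its Igfbp6 was 34.9 CPM against at most 22.0 CPM. The gap to the nearest knockout was 86.6% of the group's range for Igfbp3 and 91.1% for Igfbp6, and a gap of 82.9% is reached by chance in about 1 of 20 groups of 4. In all, 26 groups were looked at. Without YY1 KO 2 the log2 fold change was 0.73 for Igfbp6 (edgeR adjusted p = 0.0195) and 0.32 for Igfbp3 (0.156).

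The genotype difference in Irs1 had opposite signs in the 2 sex classes, and Irs1 passed the test in neither. In libraries with Y-linked reads it was 62.04 to 68.3 CPM in YY1 KO hearts and 40.4 to 52.4 CPM in controls. In libraries with Xist reads it was 40.9 to 53.7 CPM in YY1 KO hearts and 57.2 to 60.3 CPM in controls. The interaction of genotype and sex class, a test added after the data were seen, was 0.80 ± 0.25 on the log2 scale, with an unadjusted p of 0.0145 and an adjusted p of 0.812 in edgeR, so the difference did not pass over all genes. No gene passed the interaction test. An unadjusted p under 0.05 was found for 702 of 13506 genes, or 5.20%, about the share that this threshold gives without any interaction.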

How the results depend on the processing

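Of 20 alternatives, Igfbp6 was called in 18 and Insr in 14, and no alternative turned the direction of either. The components called numbered 1 with the replicate block, 0 within the Xist libraries, 0 within the Y libraries and 1 to 3 on leaving out single libraries, the third being Irs2 without control 1. Within the 4 Xist libraries 0 genes were called either higher or lower by edgeR, though 3451 had an unadjusted p under 0.05, so pathway calls were 0 higher and 0 lower there. Within the Y libraries 1730 genes were higher and 1606 lower of 13626 tested, and 6 pathway genes were higher and 6 lower. Leaving out single libraries gave 2192 to 2905 genes higher and 1668 to 2439 lower (2911 and 2337 with all), with 7 to 10 pathway genes higher and 7 to 13 lower. Library size alone gave 3339 higher and 1909 lower, and 15 and 10 pathway genes. Components not called changed sign in a few cases. Igf1 was −0.27 within the Y libraries and ranged from −0.050 to 0.44 over left-out libraries, Irs1 was −0.31 within the Xist libraries and ranged from −0.020 to 0.22, and Igfbp4 was 0.040 within the Xist libraries. The cause was not tested. The log2 difference in the Igf1r to Insr ratio was 0.49 to 0.80 over left-out libraries, where 4 against 3 hearts cannot give p below 0.0571, and that of Irs2 to Irs1 was −0.77 to −0.21.

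Deviations of same-numbered mice from their group means had correlations of −0.46, 0.34, −0.056 and 0.27 for numbers 1 to 4. The same number fell in the same sex class in both groups, with Xist reads for 1 and 4 and Y-linked reads for 2 and 3. So few correlations cannot show whether the numbers pair the mice. With the replicate block, Insr had a log2 fold change of −0.33 and an edgeR adjusted p of 0.0641, Igfbp6 one of 0.94 (0.00569), and 2210 genes were higher and 1816 lower. With a term for sex class both calls held (edgeR adjusted p = 0.0329 for Insr and 0.00422 for Igfbp6). Igfbp2, at 0 to 8 reads a library, has no usable difference at this depth.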

Other observations

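Igfbp5 values did not overlap between the sex classes of the libraries, while they overlapped between genotypes. Igfbp5 was 217.2 to 238.1 CPM in the 4 libraries with Y-linked reads and 115.5 to 197.6 CPM in the 4 with Xist reads. The term for sex class, looked at after the data were seen, was 0.74 ± 0.15 on the log2 scale for Y minus Xist libraries, with an unadjusted p of 0.00132 and an adjusted p of 1.0 in edgeR. It did not pass over all genes, of which 6 did and 457 (3.38%) had an unadjusted p under 0.05, a share below that threshold. For Igfbp6 the same term was 0.48 ± 0.17, with an unadjusted p of 0.0198 and an adjusted p of 1.0 in edgeR.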
